A study of Rattus norvegicus with 20 samples.

Results

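Ribosomal protein genes encode the protein subunits of the cytoplasmic ribosome. On this array they were taken as every probe set (a group of short probes against 1 transcript) whose only gene symbol in the platform annotation had the form Rpl or Rps followed by a number, or was Rplp0, Rplp1, Rplp2 or Rpsa. This gave 60 probe sets for 41 genes, 29 of the large subunit (42 probe sets) and 12 of the small subunit (18 probe sets), of 4736 genes that had a probe set of 1 symbol among the 8799 probe sets of the array. All 60 passed the filter on low signal, 25 genes had 1 probe set and 16 had several. Another 40 probe sets of the family were left out because the annotation gave them several symbols, among them those for Rplp2, Rpl10, Rpl32, Rps18 and Rps19.

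RNA came from rear leg skeletal muscle of rats in 4 groups of 5 samples, each on its own one-colour array: untreated normal rats, untreated diabetic rats, vanadyl sulfate treated diabetic rats, and vanadyl sulfate treated normal rats; this vanadium salt mimics some actions of insulin. The sources used here do not give the strain, age or sex of the rats, how diabetes was induced, which muscle was sampled, or how much of the salt was given and for how long. Nothing in the labels says that replicates came from separate animals, so p-values measure the spread between these samples, which may in part be technical. Values are log2(signal + 16) of the deposited signal intensities, called log2 signal here, so that a difference of 1 is a doubling; the number of arrays limits the precision of each value. The skeletal muscle label was borne out by its markers: 19 of the 23 listed were on the array, with a median rank at the 99.1th percentile of the array's signals, and the creatine kinase Ckm and the actin Acta1 were among the brightest probe sets.

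Each ribosome carries close to a single copy of nearly every ribosomal protein, and cells make them in matched amounts. Their mRNAs usually begin at a C followed by a run of pyrimidines, the terminal oligopyrimidine (TOP) tract, through which mTORC1, a kinase complex activated by insulin and amino acids, controls their translation. In skeletal muscle the number of ribosomes bears on the capacity for protein synthesis, and striated muscle has a large-subunit protein of its own, Rpl3l, which takes the place of its widely expressed paralog Rpl3.

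The sequences around the annotated transcript start are shown for the members on which the comparisons below turn, because the pyrimidine tract is the feature that defines this class of mRNA. Each runs 5' to 3' on the gene's strand, from 10 bases before the start to 20 bases from it (30 bases in all, RefSeq, GRCr8 assembly), with every run of 5 or more C or T in capitals.
Rpl3: gcctgctcgaTCTCTatcggcggcgtgtgg
Rpl3l: ctggtgcctggtggggaggTCCCTTCCTaa
Rpl41: ctcggaagtgacgacaccaagcacgccatt
Rpl14: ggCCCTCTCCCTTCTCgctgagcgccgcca
Rpl35: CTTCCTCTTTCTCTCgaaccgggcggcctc
Rps6: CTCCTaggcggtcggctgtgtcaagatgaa
Rps3: ttcagcggcgcgcggcagcaagatggcggt
Rpl22: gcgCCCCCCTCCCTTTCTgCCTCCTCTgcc
Rps23: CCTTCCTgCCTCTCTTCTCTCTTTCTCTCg

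The window of Rpl3 lies at chr7:113507971-113508000 on the minus strand, that of Rpl3l at chr10:14258436-14258465 on the plus strand, that of Rpl41 at chr7:1563478-1563507 on the minus strand and that of Rpl14 at chr8:129163610-129163639 on the plus strand. Those of Rpl35, Rps6 and Rps3 lie at chr3:43165902-43165931 on the minus strand, chr5:106420521-106420550 on the minus strand and chr1:163195757-163195786 on the minus strand. Those of Rpl22 and Rps23 lie at chr5:168117951-168117980 on the plus strand and chr2:23814507-23814536 on the plus strand. Of the 41 genes, 37 matched a RefSeq start by symbol; Rpl19l4, Rpl27, Rpl30 and Rps29 did not. On the gene's own strand, an unbroken run of 5 or more C or T, counted from the start base onward, was present in 17 of the 37 members (45.9%). It was present in 4.75% of all 33469 start windows of the table. The counted stretch can be part of a run that begins before the start base. It had a C at the start base in 11 of the 37 members (29.7%) and in 2.63% of all windows. Anywhere in the window such a run was present in 27 of the 37 (73.0%) against 44.3% of all windows. Rps23 held the run over most of its window, while Rpl41 and Rps3 held none at the annotated start. The 17 members with a run at the start base had a median change between diabetic and normal muscle of 0.38 on the log2 scale, and the 20 without it 0.48. A match or its absence describes the annotated letters only.

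Some arrays stood apart before any comparison. The 3' to 5' signal ratio of the beta-actin control probe sets, on a log2 scale, which is raised when RNA is broken or copied incompletely, spanned 0.58 to 3.01 among the 5 normal arrays, 0.93 to 2.52 among the diabetic, 1.20 to 2.61 among the treated diabetic and 0.48 to 2.09 among the treated normal ones. The same ratio for Gapdh exceeded 2 in normal replicates 1 and 3 (2.90 and 2.91) and treated diabetic replicate 1 (3.94) and stayed at or below 1.31 in the remaining 17. In treated diabetic replicate 5 the 3' control signals were 7421 for Gapdh and 7992 for beta-actin, against at least 81302 and 34569 in every other array. In that array the 60 members also scattered most: 20 lay more than 1 above and 10 more than 1 below their mean in normal muscle, an SD over members of 1.41, against SDs of 0.37 to 0.65 in the other 19 arrays.

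**Figure D1:**
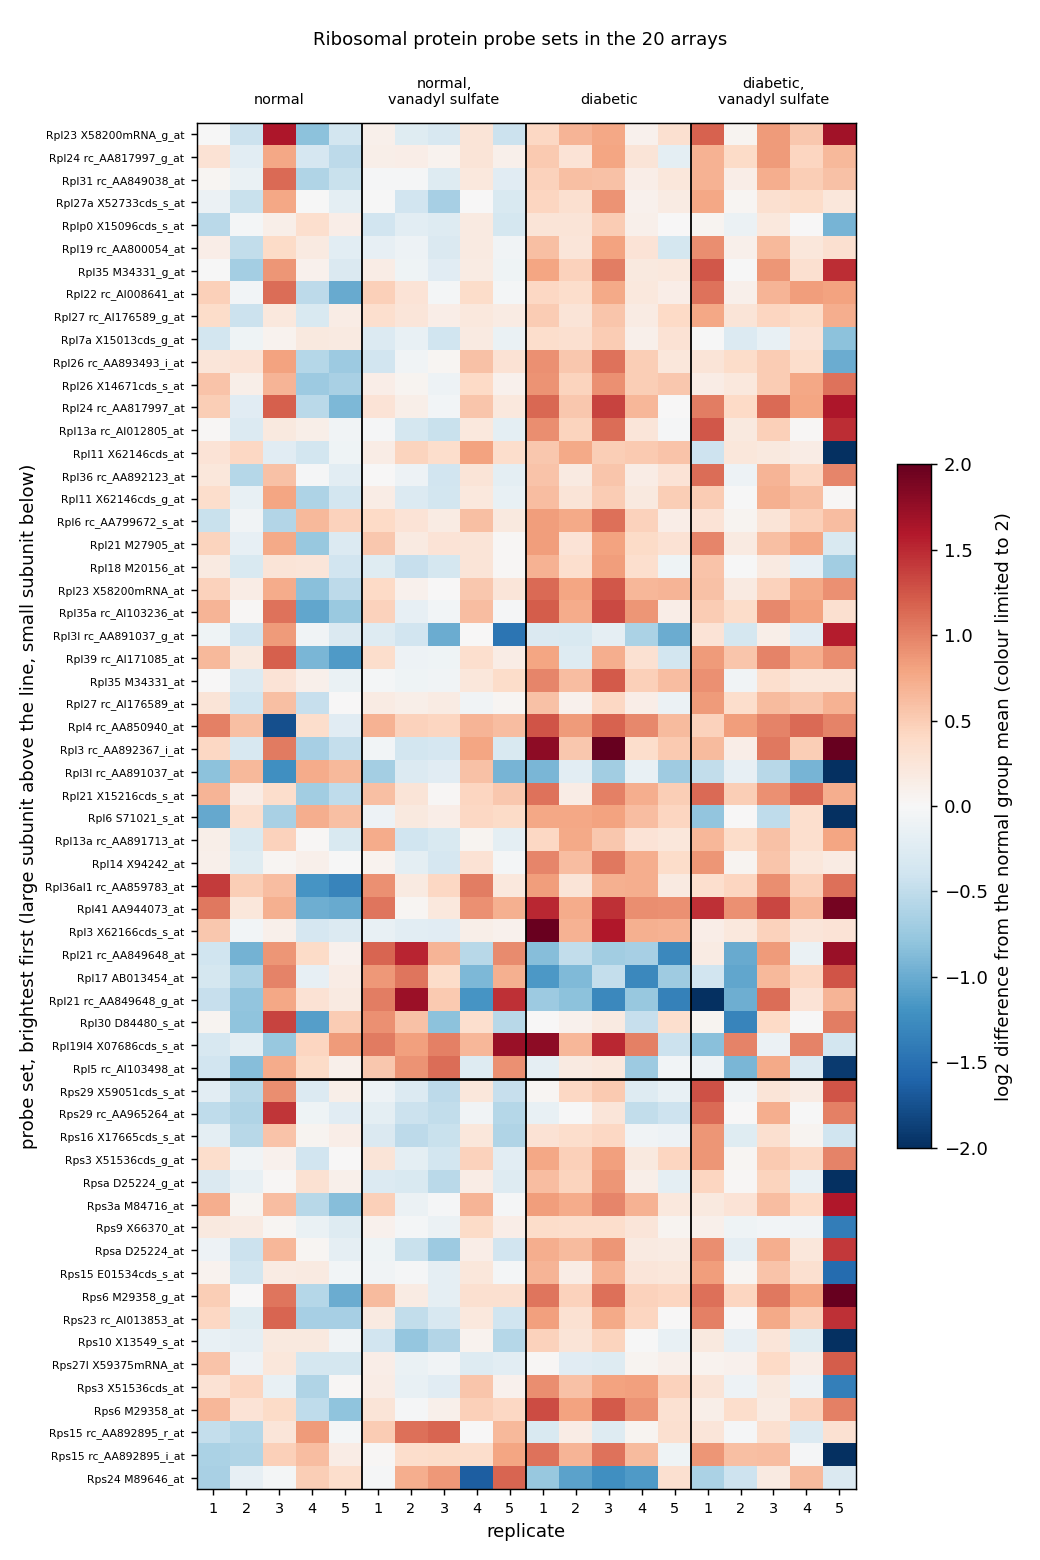
Log2 signal of each of the 60 ribosomal protein probe sets (rows, brightest first, large subunit above the line and small subunit below) in each array (columns, replicates 1 to 5 of each group), as the difference from that probe set's mean in the normal group. Most rows are red in diabetic replicates 1 and 3 and in normal replicate 3, and treated diabetic replicate 5 mixes strong red and strong blue.

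Diabetic against normal muscle asks what untreated diabetes does to this family. Of the 60 probe sets, 50 were higher in diabetic muscle (44.9% of all 6027 tested probe sets were), with a median change of 0.43, or 1.35-fold, against -0.06 for all tested probe sets. Only Rpl3, a core protein of the large subunit near the peptidyl transferase centre, rose past the threshold, by 1.14 ± 0.26 (SE) or 2.20-fold (probe set X62166cds_s_at, limma, adjusted p = 0.028, n = 5 per group). That 1 of 60 stands beside a background of 1.26% of all tested probe sets called higher. At an unadjusted p under 0.05, 17 members were higher and 1 was lower, against a background of 9.14% of tested probe sets higher. All 5 diabetic arrays lay above all 5 normal arrays in 5 members (Rpl3, Rpl14, Rpl35, Rps3 and Rpl11), and in 0 members below them; 3.33% of all tested probe sets were higher without overlap.

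**Figure D2:**
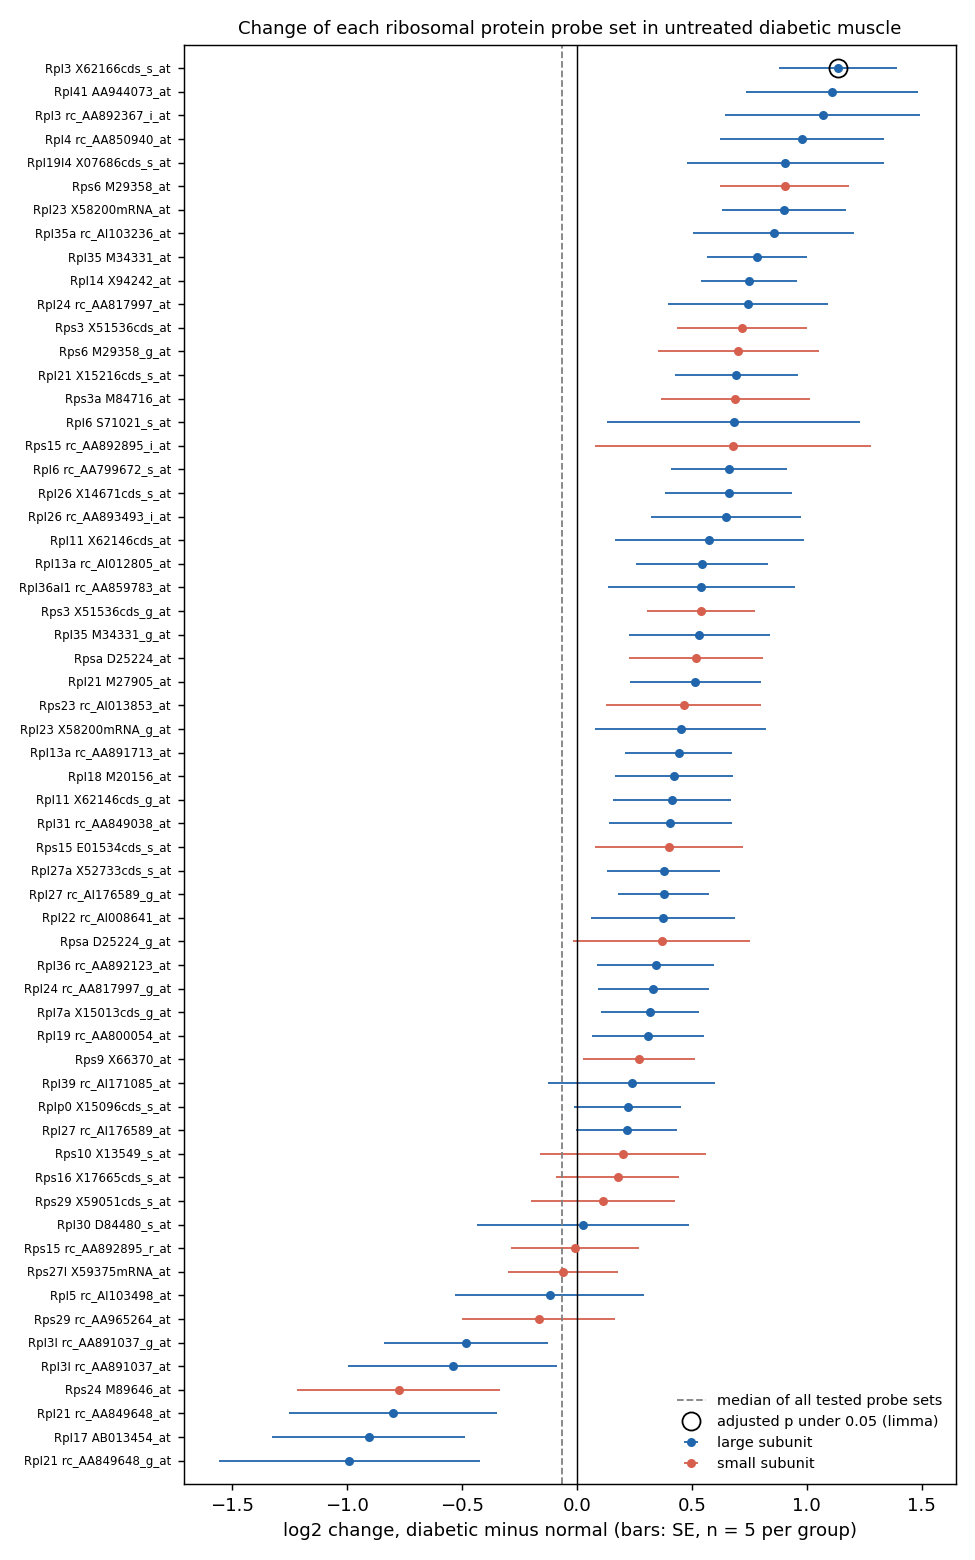
Log2 change of each of the 60 probe sets in untreated diabetic against normal muscle (points, with SE bars, n = 5 per group), ordered by size and coloured by subunit; the dashed line is the median of all 6027 tested probe sets. The changes run from -0.99 for Rpl21 rc_AA849648_g_at to 1.14 for Rpl3, the only circled point.

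Rpl3 and Rpl3l were read by 2 probe sets each. Rpl3 X62166cds_s_at had log2 signals of 13.45, 12.85, 13.01, 12.57 and 12.63 in normal replicates 1 to 5 and of 14.88, 13.60, 14.50, 13.61 and 13.60 in diabetic replicates 1 to 5. Diabetic replicates 1 and 3 were the highest, and the 2 groups did not overlap. In treated diabetic muscle it was 13.03, 13.12, 13.37, 13.15 and 13.18, below every untreated diabetic array, and in treated normal muscle 12.76, 12.69, 12.67, 13.02 and 12.98. The second and brighter Rpl3 probe set, rc_AA892367_i_at, was 14.41, 13.67, 15.03, 13.33 and 13.52 in normal and 15.78, 14.54, 16.14, 14.34 and 14.52 in diabetic muscle, a change of 1.07 ± 0.42 that did not pass (adjusted p = 0.20). Again diabetic replicates 1 and 3 were highest, and normal replicate 3 lay above the other 3 diabetic arrays. The call for Rpl3 was lost when diabetic replicate 1, diabetic replicate 3, or normal replicate 2, 4 or 5 was left out (adjusted p from 0.016 to 0.11 over the 20 fits that each leave out 1 array), and without diabetic replicates 1 and 3 together its change was 0.70.

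Rpl3l, the striated muscle paralog, was lower in diabetic muscle by both probe sets without passing. Probe set rc_AA891037_at was 14.01, 15.47, 13.59, 15.56 and 15.47 in normal and 13.90, 14.61, 14.12, 14.67 and 14.10 in diabetic muscle (change -0.54 ± 0.46, adjusted p = 0.57). Normal replicates 1 and 3, 2 of the 3 arrays of high Gapdh ratio, were as low as the diabetic arrays. The brighter probe set rc_AA891037_g_at was 14.96, 14.65, 15.89, 14.97 and 14.75 in normal and 14.75, 14.75, 14.86, 14.41 and 14.04 in diabetic muscle (change -0.48 ± 0.36, adjusted p = 0.51). These 2 probe sets of the same transcript did not follow each other across arrays: with group means removed their correlation was -0.48, and in treated diabetic replicate 5 they were 12.16 and 16.62. The log2 ratio of Rpl3 to Rpl3l (means of their probe sets, so that only differences between groups can be read) was 1.61 higher in diabetic than in normal muscle, at 0.13 ± 0.76 against -1.48 ± 0.80 (SD, n = 5). All 5 diabetic arrays lay above the normal mean, as did all 5 treated diabetic and all 5 treated normal arrays. The diabetic and normal groups overlapped only slightly (lowest diabetic -0.61, highest normal -0.55). The highest normal values were those of replicates 1 and 3 (-0.55 and -0.72), the normal arrays of high Gapdh ratio. The highest diabetic values were those of replicates 1 and 3 (1.01 and 0.83), the diabetic arrays of highest beta-actin ratio. The part of the 3' to 5' ratio in this difference was not tested. An exact two-sided permutation test over samples gave p = 0.024, or 0.12 after Benjamini-Hochberg adjustment over the 5 comparisons of this ratio. The smallest p that 5 against 5 allows is 0.0079. This test reuses the values of Rpl3, the member with the largest change in this comparison, so it is no separate support for that change. The adjustment does not cover the choice of this pair of genes. In treated diabetic muscle the ratio was -0.57 ± 0.51, in treated normal muscle -1.09 ± 0.41, and the other 4 comparisons had exact permutation p-values of 0.079 to 0.34 (n = 5 each).

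**Figure D3:**
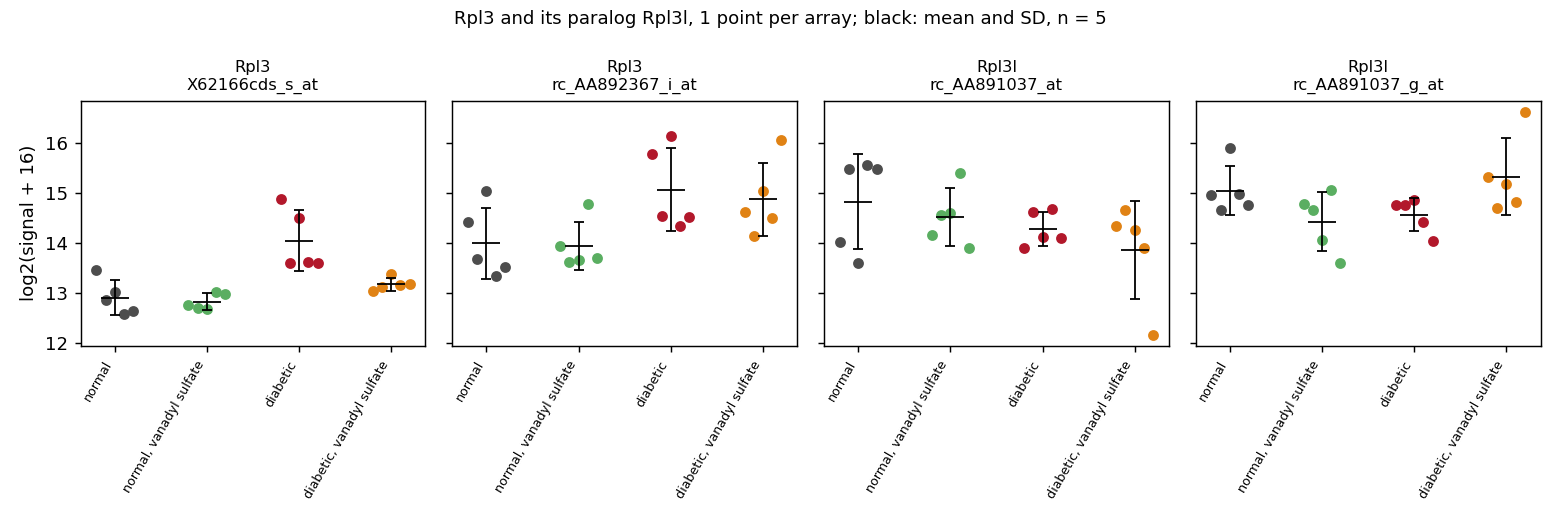
Log2 signal of both probe sets of Rpl3 and both of Rpl3l by group, 1 point per array (replicates 1 to 5 left to right) with the group mean and SD in black (n = 5). Rpl3 X62166cds_s_at sits between 13.60 and 14.88 in diabetic muscle, above all normal arrays, while the 2 Rpl3l probe sets part in treated diabetic replicate 5.

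Other proteins of the large subunit had changes of similar size and did not pass. Rpl41, a very short and basic protein, was 13.63, 12.80, 13.27, 11.59 and 11.56 in normal and 14.08, 13.32, 14.03, 13.50 and 13.48 in diabetic muscle (change 1.11 ± 0.37, adjusted p = 0.13). Normal replicates 4 and 5 were the lowest, and normal replicate 1, with the highest beta-actin ratio of all 20 arrays, reached the diabetic range. Rpl14, of the large subunit's surface, ran from 13.36 to 13.70 in normal and from 13.96 to 14.64 in diabetic muscle (change 0.75 ± 0.21, adjusted p = 0.071). For Rpl35, at the rim of the exit tunnel, the dimmer probe set M34331_at ran from 14.08 to 14.63 and from 14.83 to 15.57 (change 0.78 ± 0.22, adjusted p = 0.067), and the brighter M34331_g_at changed by 0.53. Rpl4, whose long loop lines the exit tunnel, had a change of 0.98 ± 0.36 (adjusted p = 0.16). Its value rests in part on normal replicate 3, at 12.23 against 13.77 to 15.00 in the other 4 normal arrays; across all 20 fits that leave out 1 array its change ran from 0.54 to 1.23, with an adjusted p between 0.049 and 0.35. Rpl23, which can bind the ubiquitin ligase Mdm2, had a change of 0.90 ± 0.27 by X58200mRNA_at (adjusted p = 0.092) and of 0.45 ± 0.37 by the brighter X58200mRNA_g_at. Rpl19l4 and Rpl30, among the 3 dimmest members, had changes of 0.91 ± 0.43 and 0.03 ± 0.46 (adjusted p = 0.29 and 0.98).

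Among proteins known for roles beyond the ribosome, Rpl11 and Rpl5 bind 5S rRNA and, when free, the ubiquitin ligase Mdm2. Rpl11 X62146cds_at was 15.50, 15.65, 15.01, 14.87 and 15.15 in normal and 15.78, 15.99, 15.73, 15.76 and 15.81 in diabetic muscle, with no overlap (change 0.58 ± 0.41, adjusted p = 0.49); the spread in the fit includes treated diabetic replicate 5, at 12.47. Rpl5, the dimmest member, had a change of -0.12 ± 0.41 (adjusted p = 0.92). Rpl13a, which can be released from the ribosome to silence inflammatory mRNAs, had changes of 0.54 and 0.44 by its 2 probe sets. Rplp0, the base of the acidic stalk that recruits elongation factors, was 15.47, 15.97, 16.12, 16.33 and 16.13 in normal and 16.25, 16.26, 16.51, 16.10 and 16.005 in diabetic muscle (change 0.22 ± 0.23, adjusted p = 0.66). Only normal replicate 1 lay clearly below the diabetic arrays.

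Small-subunit proteins had mostly positive changes too, and none passed. Rps6, the substrate of the S6 kinases, was 14.47, 14.09, 14.19, 13.30 and 13.02 in normal and 15.11, 14.61, 15.03, 14.71 and 14.12 in diabetic muscle by M29358_at (change 0.90 ± 0.28, adjusted p = 0.10), and its brighter probe set M29358_g_at changed by 0.70 ± 0.35 (adjusted p = 0.32). Rps3, at the mRNA entry channel, changed by 0.72 ± 0.28 and 0.54 ± 0.23 by its 2 probe sets (adjusted p = 0.20 and 0.24); the first ran from 13.69 to 14.73 in normal and from 14.75 to 15.22 in diabetic muscle. Rpsa, also known as a precursor of a laminin receptor, had changes of 0.37 and 0.52. Rps29, a zinc-binding protein of the subunit's head, and Rps16 gave some of the brightest signals, which do not compare amounts between genes, and small changes: 0.12 and -0.17 for the 2 probe sets of Rps29 and 0.18 for Rps16. Rps24, mutated in an inherited anaemia, was the lowest of the subunit, at -0.78 ± 0.44 (adjusted p = 0.38); it was 10.54 to 11.69 in normal and 9.97 to 11.52 in diabetic muscle.

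Of the 60 members 10 were lower in diabetic muscle, and none of these passed. Rpl17, at the rim of the exit tunnel, had a change of -0.91 ± 0.42 (adjusted p = 0.28), with all 5 diabetic arrays (9.20 to 10.01) below the normal mean of 10.49. Rpl21 was read by 4 probe sets that disagreed: rc_AA849648_g_at and rc_AA849648_at were lower by -0.99 ± 0.57 and -0.80 ± 0.45 (adjusted p = 0.39 and 0.38), while M27905_at and X15216cds_s_at were higher by 0.52 ± 0.28 and 0.69 ± 0.27 (adjusted p = 0.37 and 0.18). The former pair had mean log2 signals of 9.94 and 10.999, the latter 15.05 and 14.30, and with group means removed the correlations among the 4 ran from -0.18 to 0.77. Rps15 gave changes of 0.40, 0.68 and -0.01 by its 3 probe sets. Of the 7 probe sets with a mean log2 signal under 12 (Rpl5, Rpl19l4, Rpl30, Rpl17, Rps24 and the dim pair of Rpl21), 5 had a negative change, against 5 of the 53 brighter ones.

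Large and small subunits differed little. The median change in diabetic against normal muscle was 0.45 for the 42 large-subunit probe sets (36 positive) and 0.39 for the 18 of the small subunit (14 positive), a difference of 0.06. Averaged over its members, the large subunit lay 0.40 ± 0.26 (SD, n = 5) above the normal mean in diabetic arrays and the small subunit 0.32 ± 0.19. Within arrays the large minus small difference ran from -0.15 to 0.12 in normal and from -0.02 to 0.19 in diabetic muscle, and these ranges overlap. In treated diabetic arrays it was wider, from -0.12 to 0.39, and in treated normal arrays it ran from 0.09 to 0.21. The difference between the subunits' medians was -0.00 for treated against untreated diabetic, 0.12 for treated against untreated normal, 0.08 for treated diabetic against treated normal and 0.19 for treated diabetic against normal muscle. Without the 3 arrays of high Gapdh ratio it was 0.24 in diabetic against normal and 0.28 in treated against untreated normal muscle.

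**Figure D4:**
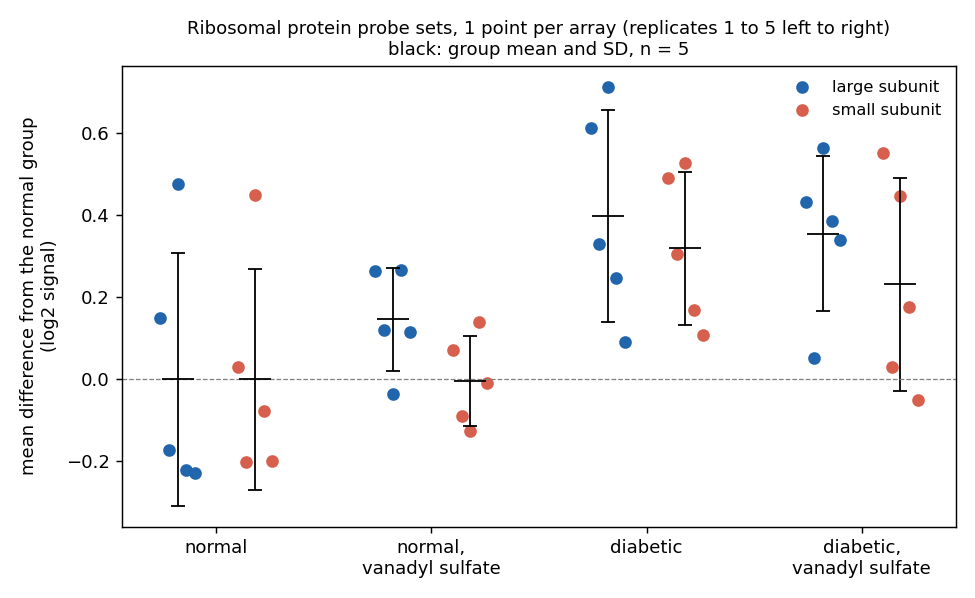
Mean difference from the normal group over the large-subunit (blue) and the small-subunit (red) probe sets, 1 point per array, with the group mean and SD (n = 5) in black. The points of both subunits lie above those of normal replicates 2, 4 and 5 in diabetic muscle, and normal replicate 3 is the highest normal array in both.

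As a family mean over the 60 probe sets, set against the normal group, the arrays read 0.11, -0.18, 0.47, -0.18 and -0.22 in normal replicates 1 to 5 and 0.58, 0.32, 0.66, 0.22 and 0.10 in diabetic replicates 1 to 5. Treated diabetic arrays read 0.47, 0.05, 0.53, 0.32 and 0.22, and treated normal arrays 0.20, 0.06, -0.06, 0.23 and 0.08. Normal replicates 1 and 3 reached the diabetic range; the other 3 normal arrays lay below every array of the other groups. The 60 probe sets made up 5.73 ± 0.76% of the summed signal in normal, 7.79 ± 1.08% in diabetic, 7.21 ± 0.68% in treated diabetic and 6.10 ± 0.56% in treated normal muscle (SD, n = 5).

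The family level moved with the 3' to 5' ratio of the control probe sets. Over 20 arrays the family mean and the beta-actin ratio had a Pearson correlation of 0.66 (Spearman 0.70), 0.75 once the 2 arrays of most extreme ratio were dropped, and 0.60 with group means removed. For Gapdh the 3 arrays with a ratio above 2 form a cluster of their own, and over the other 17 the correlation was 0.76 (Spearman 0.75). In those 17 the Gapdh ratios of the normal arrays (0.03 to 0.12) lay below those of the diabetic arrays (0.21 to 1.11). These are descriptions of arrays that also differ in group. By subunit the correlation with beta-actin was 0.66 for the large and 0.59 for the small subunit, and 0.28 for the large minus small difference. That last value moved with the arrays kept: it was 0.51 without the 2 arrays of most extreme ratio and 0.53 over the 17 arrays of Gapdh ratio at most 2, where the correlation with Gapdh was 0.59 (Spearman 0.35).

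**Figure D5:**
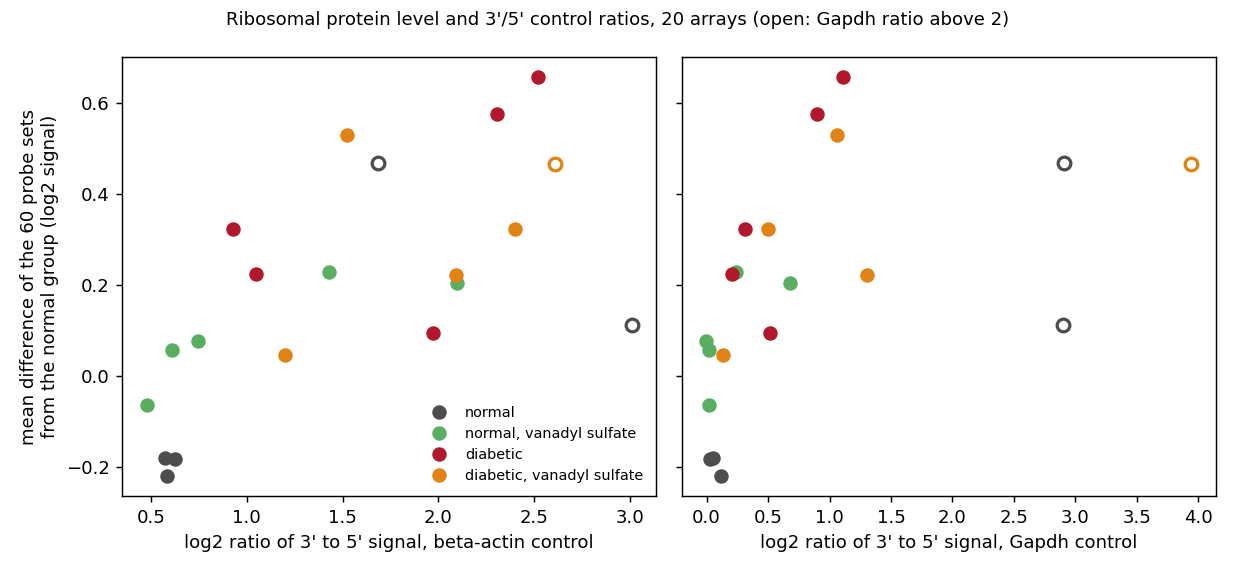
Mean difference of the 60 probe sets from the normal group (log2 signal) against the 3' to 5' signal ratio, log2, of beta-actin (left) and Gapdh (right), 1 point per array coloured by group; open circles are the 3 arrays with a Gapdh ratio above 2. Normal replicates 2, 4 and 5 sit at the lower left, and diabetic replicates 1 and 3 are the highest points.

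Member by member, a fit of the slope on the beta-actin ratio with the group means in the model gave 46 positive slopes of 60, with a median of 0.21 per unit of log2 ratio against -0.05 over all tested probe sets. Rpl41 (0.55 ± 0.14, adjusted p = 0.022) and Rpl21 X15216cds_s_at (0.39 ± 0.10, adjusted p = 0.023) rose with the ratio past the threshold in limma, 2 of 60 against a background of 1.05% called higher. At an unadjusted p under 0.05, 22 members had a positive and 1 a negative slope, against a background of 7.37% positive. Rpl22, an RNA-binding protein of the large subunit, came next (0.41 ± 0.13, adjusted p = 0.054). The smallest p among negative slopes belonged to Rpl3l rc_AA891037_at (-0.49 ± 0.20, adjusted p = 0.16), Rps15 rc_AA892895_r_at (-0.23) and Rpl6 S71021_s_at (-0.40). Medians were 0.21 for the large and 0.16 for the small subunit. With the replicate number as a block, and with both ratios in the fit, 0 of 60 members were called on either slope: the adjusted p on the beta-actin ratio was then 0.28 and 0.35 for Rpl41 and 0.33 and 0.24 for Rpl21 X15216cds_s_at.

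On the Gapdh ratio 49 of 60 slopes were positive, with a median of 0.17 against -0.01 over all tested probe sets. Rpl22 (0.34 ± 0.08, adjusted p = 0.020), Rps23 of the decoding centre (0.35 ± 0.09, adjusted p = 0.028), Rpl36 (0.26 ± 0.07, adjusted p = 0.036), Rpl41 (0.37 ± 0.11, adjusted p = 0.047) and Rpl23 X58200mRNA_g_at (0.36 ± 0.11, adjusted p = 0.049) rose with it, 5 of 60 against a background of 0.581%. Unadjusted, 30 were positive and 1 negative, against 7.02% positive over all. Rpl22 reads 15.99, 15.46, 16.64, 15.00 and 14.52 in normal replicates 1 to 5 and Rps23 15.45, 14.79, 16.19, 14.36 and 14.37, so that in both genes replicates 1 and 3, the normal arrays of high ratio, are the highest. Among negative slopes the smallest p belonged to Rpl19l4 (-0.34 ± 0.14, adjusted p = 0.15), Rpl3l rc_AA891037_at (-0.31) and Rpl6 S71021_s_at (-0.34). Medians were 0.19 for the large and 0.14 for the small subunit. The counts rest on single arrays: without treated diabetic replicate 5 they were 10 (beta-actin) and 11 (Gapdh), without treated diabetic replicate 1 they were 5 and 22, without normal replicate 1 they were 0 and 8, and without normal replicate 3 they were 3 and 0. Beta-actin slopes were called for 4 members without normal replicate 2 and for 0 without normal replicate 4; the Gapdh count was 0 to 3 in 16 of the 20 fits that leave out 1 array.

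The diabetic change was also fitted with the ratios taken into account. With the beta-actin ratio as a covariate the median change of the 60 members between diabetic and normal muscle was 0.33, with the Gapdh ratio 0.54 and with both 0.47, against 0.43 without them. The members called were 1, 7 and 0 in these fits, all of them higher, against backgrounds of 1.1%, 2.44% and 0.382% called higher. Leaving out the 3 arrays of high Gapdh ratio gave a median of 0.62 and 16 members called, all higher, against a background of 3.73% of tested probe sets called higher. These 16 were 13 probe sets of 11 large-subunit genes and 3 probe sets of 2 small-subunit genes, among them both probe sets of Rpl3 and of Rps6. In the remaining arrays the beta-actin ratios of the groups no longer overlap (normal 0.58 to 0.63, diabetic 0.93 to 2.52), so that there group and ratio cannot be told apart.

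Scores of immune cell and adipocyte markers were higher in every diabetic array than in every normal array. The list of immune cell markers (19 of 29 tested) scored -0.30 to 0.18 against the normal mean in normal arrays and 0.36 to 1.74 in diabetic arrays, with diabetic replicates 1 and 3 at 1.74 and 1.73. In treated diabetic arrays it scored -0.21 to 0.40 and in treated normal arrays 0.20 to 0.44. Of its 19 tested members, 6 were called higher and 0 lower in diabetic muscle, while Csf1r and Itgam were too dim to test. Beside this count and those of the lists below stands a background of 1.26% of all tested probe sets called higher. Adipocyte markers (6 of 11 tested) scored -0.37 to 0.38 in normal and 0.81 to 1.45 in diabetic arrays, and among treated arrays 0.20 to 0.58 in diabetic and -0.08 to 0.30 in normal muscle; 3 rose in diabetic muscle. The scores of the other lists overlapped between normal and diabetic arrays: blood cells ran from -0.27 to 0.57 and from -0.27 to 0.20, nerve and Schwann cells from -0.52 to 0.46 and from -0.36 to 0.38, and fibroblasts from -0.74 to 0.55 and from -0.37 to 0.36. Endothelium ran from -0.38 to 0.37 in normal and from 0.11 to 0.43 in diabetic arrays, with 1 of 7 tested markers called higher. Smooth muscle ran from -0.51 to 0.31 and from -0.16 to 1.14, with diabetic replicates 1 and 3 at 1.14 and 0.77. Skeletal muscle ran from -0.51 to 0.89 in normal and from -0.61 to -0.12 in diabetic arrays. No tested marker of the blood, nerve, fibroblast, smooth muscle or skeletal muscle lists passed in limma. Over the 20 arrays, which also differ in group, the family mean correlated at 0.60 with the immune and at 0.74 with the adipocyte score. The correlation was 0.41 with the skeletal muscle, 0.28 with the fibroblast and 0.24 with the blood cell score. For smooth muscle, nerve and Schwann cells, and endothelium it was 0.14, 0.12 and 0.07. Diabetic replicates 1 and 3, the arrays of highest immune score, also had the highest 3' to 5' ratios of the diabetic arrays. These were 2.30 and 2.52 for beta-actin and 0.90 and 1.11 for Gapdh. Without both replicates the members' median change was 0.28, 0 members passed in limma and 4 had an unadjusted p under 0.05. A larger share of such cells and more ribosomal protein mRNA per cell cannot be told apart in bulk muscle, and the part of these cells in the result was not tested.

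Treated against untreated diabetic muscle asks what vanadyl sulfate does in diabetic rats. Here 30 of 60 members were higher and 30 lower, with a median of -0.01 against 0.08 over all tested probe sets, and 0 passed (lowest adjusted p = 0.12), beside a background of 0.498% called in either direction. Unadjusted, 4 were higher and 7 lower, against a background of 16.3%. The smallest p among lower members belonged to Rpl3 X62166cds_s_at (-0.87 ± 0.26, adjusted p = 0.12), Rps3 X51536cds_at (-0.94 ± 0.28, adjusted p = 0.12) and Rpl6 S71021_s_at (-1.65 ± 0.55, adjusted p = 0.17), each with every treated array below every untreated one. With Rpl11 X62146cds_at these were the 4 members lower without overlap, against a background of 2.07%. Rps3 read 14.55, 14.19, 14.48, 14.19 and 12.92 in treated and 15.22, 14.88, 15.09, 15.11 and 14.75 in untreated diabetic muscle, and Rpl6 13.33, 14.13, 13.62, 14.45 and 10.25 against 14.90, 14.90, 14.93, 14.75 and 14.55. In both the lowest value was that of treated diabetic replicate 5. The brighter probe sets of these genes changed by -0.20 (Rpl3), 0.03 (Rps3) and -0.33 (Rpl6). Among the higher members were Rpl17 (1.08 ± 0.42, adjusted p = 0.23), Rpl21 rc_AA849648_at (1.12 ± 0.45, adjusted p = 0.24) and Rps29 rc_AA965264_at (0.74 ± 0.33, adjusted p = 0.28). Without treated diabetic replicate 5 the median was -0.00.

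In normal rats the treatment gave 33 higher members of 60 and a median of 0.09 against 0.18 over all tested probe sets, with 0 called (lowest adjusted p = 0.50) beside a background of 0.0664%. The median was 0.33 without the 3 arrays of high Gapdh ratio (45 of 60 higher, against a median of 0.12 over all probe sets), 0.26 after quantile normalization (49 higher) and 0.24 with the Gapdh ratio as a covariate (47 higher). Unadjusted, 2 members were higher, Rpl19l4 (1.05 ± 0.43) and Rps15 rc_AA892895_r_at (0.68 ± 0.28), and 0 lower, against a background of 9.23% in either direction. Rpl21 rc_AA849648_at followed at 0.75, and the smallest p among lower members belonged to Rpl3l rc_AA891037_g_at (-0.62 ± 0.36), Rps10 (-0.45) and Rps16 (-0.33). The interaction, the treatment change in diabetic minus that in normal rats, had a median of -0.13, as did all tested probe sets, with 0 of 60 called (lowest adjusted p = 0.19) beside a background of 0.166% and 7 at an unadjusted p under 0.05 beside 13.3%. Its smallest p-values were those of Rpl19l4 (-1.82 ± 0.60), Rpl3l rc_AA891037_g_at (1.38 ± 0.50), Rpl11 X62146cds_at (-1.52 ± 0.58) and Rps3 X51536cds_at (-1.03 ± 0.40), with Rps29 rc_AA965264_at at 1.09 ± 0.47 and Rps27l, a damage-induced paralog of Rps27, at 0.55 ± 0.34. Both comparisons share the untreated arrays with those above.

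Treated diabetic against treated normal muscle is the comparison of disease that shares no array with the untreated one. In it 43 of 60 members were higher, with a median of 0.38 against -0.15 over all tested probe sets (38.0% of them higher). By subunit the medians were 0.38 (32 of 42 positive) and 0.30 (11 of 18 positive). None of the 60 passed in limma (lowest adjusted p = 0.14), and the background called higher was 0%. Unadjusted, 18 were higher and 4 lower, against a background of 5.53% higher, and 6 members were higher without overlap (Rpl24, Rpl27, Rpl27a, Rpl3, Rpl39 and Rps29) against a background of 1.21%. Rpsa D25224_at read 16.19, 15.08, 15.99, 15.48 and 16.68 in treated diabetic and 15.17, 14.81, 14.54, 15.40 and 14.88 in treated normal muscle (change 0.92 ± 0.29, adjusted p = 0.14). Rpl13a rc_AI012805_at (0.84 ± 0.29, adjusted p = 0.16) and Rps29 rc_AA965264_at (0.92 ± 0.33, adjusted p = 0.18) followed. Rpl3 X62166cds_s_at had a change of 0.35 ± 0.26 here, and the brighter rc_AA892367_i_at one of 0.93 ± 0.42 (adjusted p = 0.26). The smallest p among lower members belonged to Rpl5 (-1.13 ± 0.41), Rpl11 X62146cds_at (-0.94 ± 0.41) and Rpl19l4 (-0.91 ± 0.43). The other probe set of Rpl11, X62146cds_g_at, had a change of 0.45 ± 0.26, and without treated diabetic replicate 5 the change by X62146cds_at was -0.38 ± 0.21. The median is sensitive to the scaling and the ratios: it was 0.04 after quantile normalization, 0.63 after median centring, which moved the median of all probe sets from -0.15 to 0.10, and 0.12 with the beta-actin ratio as a covariate. Beta-actin ratios were higher in treated diabetic (1.20 to 2.61) than in treated normal arrays (0.48 to 2.09), with overlap.

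Treated diabetic against untreated normal muscle gave 46 of 60 higher, a median of 0.40 against 0.05 over all tested probe sets, and 0 called (lowest adjusted p = 0.27) beside a background of 0% called higher. Unadjusted, 19 were higher and 1 lower, against a background of 6.29% higher. Rpl41 (1.26 ± 0.37), Rpl21 X15216cds_s_at (0.88 ± 0.27) and Rps6 M29358_g_at (1.09 ± 0.35) had the smallest p (adjusted p = 0.27, 0.27 and 0.29). Among lower members the smallest p belonged to Rpl3l rc_AA891037_at (-0.96 ± 0.46), Rpl6 S71021_s_at (-0.97 ± 0.55) and Rps10 (-0.46 ± 0.36), while the brighter probe sets of Rpl3l and Rpl6 had changes of 0.28 ± 0.36 and 0.33 ± 0.25. In the fit to the 17 arrays of Gapdh ratio at most 2, 16 members passed, 15 of them higher, against a background of 2.22% called higher, and 9 of them were among the 16 of the diabetic against normal comparison without those arrays. The member called lower was Rpl3l rc_AA891037_at (-1.76 ± 0.47, adjusted p = 0.039); the brighter probe set of Rpl3l, rc_AA891037_g_at, had a change of 0.53 ± 0.42 in that fit (adjusted p = 0.46). Both of these comparisons share the untreated normal arrays, of which that fit keeps replicates 2, 4 and 5. Of the treated diabetic arrays it keeps replicates 2 to 5. Beta-actin ratios were 0.58 to 0.63 in the normal and 1.20 to 2.40 in the treated diabetic arrays kept. Gapdh ratios were 0.03 to 0.12 and 0.13 to 1.31. Neither ratio overlaps between these groups, so that here too group and ratio cannot be told apart.

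The members varied together across arrays within groups, except for pairs within the small subunit. With group means removed, pairs of probe sets of different members had a median correlation of 0.29 and were positive in 67.3% of pairs, against 0.01 and 51.4% among other tested probe sets. Pairs within the large subunit had a median of 0.34 and pairs across subunits 0.25. Pairs within the small subunit had -0.01 and were positive in 48.6%, while pairs of probe sets of the same gene had 0.40 (23 pairs). Rpl24 rc_AA817997_g_at (0.90), Rpl27a (0.85) and Rpl24 rc_AA817997_at (0.83) followed the mean of the other genes most closely. Rpl3l rc_AA891037_at (-0.42), Rps24 (-0.40) and Rpl4 (-0.33) ran against it. These 6 were chosen after their values were seen, and all points share the 20 arrays and their scaling.

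The family probe sets left out for several symbols were also looked at as a group. Of 31 that named ribosomal protein genes only, 30 were tested, and 28 were higher in diabetic than in normal muscle, with a median of 0.52, 0 called by limma (background 1.26% called higher) and 13 higher at an unadjusted p under 0.05 (background 9.14%). Their slopes on the beta-actin ratio were positive in 29 of 30 with a median of 0.19, and 1 passed, beside the 1.05% called higher on that slope. In treated diabetic against treated normal muscle 23 were higher, with a median of 0.30. In treated against untreated diabetic muscle 10 of the 30 were higher, with a median of -0.28 against 0.08 over all tested probe sets. There 0 were called (background 0.498% in either direction). At an unadjusted p under 0.05 there were 8, 0 of them higher (background 16.3% in either direction). In treated against untreated normal muscle 13 were higher, with a median of -0.08.

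Other genes of protein synthesis were read from lists chosen with earlier results of these data known. Their counts stand beside the same backgrounds for diabetic against normal muscle. These were 1.26% of tested probe sets called higher, 0.564% called lower and 9.14% higher at an unadjusted p under 0.05. Of 9 tested genes with TOP mRNAs that carry other symbols, 1 rose in diabetic muscle, 6 had an unadjusted p under 0.05 and all 9 had positive changes, with a median of 0.76. Gas5, a non-coding TOP host of small nucleolar RNAs, rose by 1.49 ± 0.38 (adjusted p = 0.0497), and Eef1a1, the elongation factor that brings aminoacyl-tRNA, had a change of 1.02 ± 0.28 (adjusted p = 0.062). Of 17 initiation factors 0 passed in limma and 2 were higher at an unadjusted p under 0.05, with a median of 0.18; Eif5b, which joins the subunits, had a change of 0.67 ± 0.24 (adjusted p = 0.16) and Pabpc4, a poly(A)-binding protein, 1.57 ± 0.67 (adjusted p = 0.23). Of 4 elongation factors, 3 of them also on the TOP list, 0 passed and 1 had an unadjusted p under 0.05, Eef1a1 and Eef1g (0.24 ± 0.22) having the smallest p. Of 11 regulators of translation 0 passed and 1 had a positive change and an unadjusted p under 0.05, Eif4ebp1, the mTORC1-controlled repressor of cap binding (1.23 ± 0.35, adjusted p = 0.080); Rps6kb1, an S6 kinase, had a change of -0.56 ± 0.33 (adjusted p = 0.40), and the median was -0.36.

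Of 13 genes of ribosome assembly and rRNA synthesis, Myc, a transcription factor of ribosome biogenesis genes with a dim probe set (mean log2 signal 8.87), rose by 1.29 ± 0.25 (adjusted p = 0.014) and Cmss1, named as the homolog of a yeast small-subunit factor, fell by 1.75 ± 0.40 (adjusted p = 0.030), with 11 not passing and a median of 0.18. Of 14 proteins of the mitochondrial ribosome, which is built separately and translates the mitochondrial genome, Mrpl38 fell by 1.15 ± 0.24 (adjusted p = 0.020), 13 did not pass, among them Mrps11 (-0.83 ± 0.32, adjusted p = 0.18), and 3 were higher, with a median of -0.44. In the same comparison 44.9% of all tested probe sets were higher, with a median of -0.06.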

How the data were processed

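Linear signal intensities, 1 for each probe set on each array, were deposited by the authors; the submitters' processing notes name MAS5, with no version. The RNA was poly(A)-selected per the labels' protocols. The mean signal trimmed by 2% at each end was 2503 to 2506 in all 20 arrays, so the authors' scaling was kept. Values are log2(signal + 16). The filter kept probe sets above the array's 40th percentile in 5 or more of 20 arrays, 6027 of 8799 (59 controls left out). limma 3.58.1 (lmFit, eBayes; R 4.3.3) was fitted to all 20 arrays with 4 group means, for 6 comparisons and 2 slopes on the control probe sets' 3' to 5' ratios, with Benjamini-Hochberg adjustment over 6027 probe sets, a threshold of 0.05 and two-sided tests; the Rpl3 to Rpl3l ratio used exact permutation tests. The fits of diabetic against normal muscle and of the slope on the beta-actin ratio were first tested on simulated data.

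Probe sets were named from the platform annotation; 59 of the 60 gene identifiers were found in the RefSeq table and 0 symbols changed. The members and lists were chosen with earlier results of these data known. The genes named are, in each comparison and slope, the 3 with the smallest p in each direction, the 5 largest and 5 smallest changes in diabetic against normal muscle, the 3 brightest and 3 dimmest, genes whose probe sets disagree, a fixed set by role and the 2 of smallest p of each list. Rpl24, Rpl27, Rpl27a and Rpl39 fall outside the rule and were chosen after their values were seen. A gene with several probe sets was to be given by the brightest, with the others beside it where they differ. For Rpl3, Rpl35, Rpl23, Rps6 and Rps3 the dimmer probe set is named first. It had the larger change in diabetic against normal muscle in each of these genes. Alternatives were another pseudocount, filter, scaling, replicate block, the ratios as covariates, fewer arrays and 1 probe set per gene. The labels name no pairing by replicate number, so the main fit has no block. Of 30 pairs with the same number across groups, 11 had a correlation of their deviations over 0.1. The mean correlation was 0.077 in these 30 pairs and -0.018 in the 120 pairs of different numbers. Whether samples of the same number share a batch was not tested.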

Additional observations from a re-analysis of the deposited data

Results flagged for a closer look

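Within groups of 5, 3 named probe sets had 1 array far from the other 4. Rpl3l rc_AA891037_g_at read 15.89 in normal replicate 3, an array of high Gapdh ratio, against 14.65 to 14.97 in the other normal arrays. Rplp0 read 15.08 in treated diabetic replicate 5, the array of low control signals, against 15.89 to 16.21 in the other treated diabetic arrays. Rpl3 rc_AA892367_i_at read 14.78 in treated normal replicate 4 against 13.62 to 13.94 in the other treated normal arrays. The check was run on 60 groups of 5 arrays, and chance alone marks about 1 in 20.

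In 3 probe sets every treated diabetic array lay on 1 side of the untreated diabetic mean and every treated normal array on the other side of the untreated normal mean. They were Rpl11 X62146cds_at (treatment change -1.10 in diabetic and 0.42 in normal rats, a difference of -1.52), Rpl6 rc_AA799672_s_at (-0.33 and 0.33, a difference of -0.65) and Rps29 rc_AA965264_at (0.74 and -0.35, a difference of 1.09). For Rpl11 X62146cds_at, treated diabetic replicate 5 read 12.47 against 14.83 to 15.46 in the other treated diabetic arrays. The other probe set of Rpl11, X62146cds_g_at, had means of 15.42 in diabetic and 15.37 in treated diabetic muscle. In normal and treated normal muscle they were 15.01 and 14.92. The other probe sets of Rpl6 and Rps29 had group means that moved in the same directions as those named. Such a split was not tested by itself, and its share over all tested probe sets is not given here. None of the 3 passed in limma's interaction.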

How the results depend on the processing

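No called member changed sign under the alternatives run. The members' median stayed positive under each of them in the 3 comparisons of diabetic with normal muscle and took both signs in the 2 treatment comparisons, from -0.28 to 0.13 in diabetic and from -0.11 to 0.33 in normal rats over the alternatives run. The number of members called in diabetic against normal muscle, 1 in the main analysis, was 3 with a 16-fold larger pseudocount, 3 with a filter at the 60th percentile, 2 after quantile normalization, 7 with the Gapdh ratio as a covariate and 16 without the 3 arrays of Gapdh ratio above 2. It was 0 with no filter, with both ratios as covariates, with only the 2 groups in the fit, and without diabetic replicates 1 and 3 together, a setting added after the data were seen. Leaving out 1 array at a time gave 0 to 5: 5 without normal replicate 1, 2 without normal replicate 3 and 0 without normal replicate 2, 4 or 5 or diabetic replicate 1 or 3. For treated diabetic against normal the count rose from 0 to 16 without the arrays of high Gapdh ratio, and for treated diabetic against treated normal it was 0 to 1 over the fits that leave out 1 array, the 1 coming without treated diabetic replicate 2.

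The members' median change was -0.28 in treated against untreated diabetic muscle after quantile normalization. In treated against untreated normal muscle the median of all tested probe sets moved from 0.18 to -0.02 after median centring. In treated diabetic against treated normal muscle the members' median was 0.043 after quantile normalization, 0.63 after median centring, 0.12 with the beta-actin ratio and 0.12 with both ratios as covariates. The interaction's median was -0.49 after quantile normalization, -0.38 without the arrays of high Gapdh ratio and -0.41 with the Gapdh ratio as a covariate. The large minus small subunit difference was 0.24 in diabetic against normal and 0.28 in treated against untreated normal muscle without the arrays of high Gapdh ratio, and in the interaction 0.12 after quantile normalization and -0.23 with 1 probe set per gene. Over the fits that leave out 1 array it ran from -0.0053 to 0.22 in treated against untreated normal, from -0.084 to 0.14 in treated diabetic against treated normal, from 0.074 to 0.25 in treated diabetic against normal and from -0.20 to 0.0061 in the interaction.

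The slope on the beta-actin ratio, with 2 members called, gave 8 with a 16-fold larger pseudocount, 5 with the filter at the 60th percentile, 16 after median centring, 24 with no group terms, and 0 if arrays of high Gapdh ratio were dropped, with both ratios in the fit, and without diabetic replicates 1 and 3; it ran from 0 to 10 over the fits that leave out 1 array. The slope on the Gapdh ratio, with 5, gave 9 with a 16-fold larger pseudocount, 8 with the filter at the 60th percentile, 11 after median centring, 2 with no filter, 1 after quantile normalization, 0 with both ratios in the fit, 1 without diabetic replicates 1 and 3, and 0 to 22 over the fits that leave out 1 array. With the replicate block, both slopes had 0 members called and diabetic against normal kept 1; the block moved no other count of members. Of the 20 samples, 6 correlated best with their own replicate number. The cause of these moves was not tested. With 5 arrays a group the median SE of a member's change was 0.31.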
